A study of Mus musculus with 2 samples.

Results

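The 6 genes described here are Mirlet7a-1, Mirlet7a-2, Mirlet7c-1, Mirlet7c-2, Mirlet7f-1 and Mirlet7f-2, the let-7 genes of the mouse whose mature microRNA is made from 2 numbered copies. They were chosen by name from the 2202 microRNA genes of GENCODE mouse release 21, and all 6 were in the files of both libraries. The small RNA, under 30 nt by the labels, came from the gastrocnemius, a calf muscle, of female B6CASTF1/J mice, the F1 hybrid of C57BL/6J and CAST/EiJ, at an age of 2 months. There was 1 group of 2 libraries, biological replicates 1 and 2, and no treatment, mutation or second tissue. The labels number the females separately but give them 1 donor code, so SDs and p-values measure the spread or counting error of these libraries only, which may be technical.

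The let-7 microRNAs were found in Caenorhabditis elegans as regulators of developmental timing, and in mammals they are low in embryonic cells and high in differentiated tissue. A hairpin precursor is cut by Drosha and then Dicer into a 5p arm, which in this family is the main guide strand, and a 3p arm, which mostly is discarded. The RNA-binding protein Lin28 holds the precursors back in early cells, and the 5p arm represses messages such as those of Lin28, Hmga2 and Ras genes through its seed, bases 2 to 8.

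The mature sequences are shown first because they set which reads can be given to 1 copy. The 5p arms of let-7a, let-7c and let-7f are printed 5′ to 3′ from RefSeq (GRCm38.p6), with the seed in capitals.
let-7a-5p: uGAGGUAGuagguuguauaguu
let-7c-5p: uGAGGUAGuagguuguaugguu
let-7f-5p: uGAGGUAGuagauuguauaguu
All 3 share 1 seed, which the 5p arms of Mirlet7b, Mirlet7d, Mirlet7e, Mirlet7g, Mirlet7i and Mir98 also carry. The let-7a arm differs from that of let-7c by 1 base and from that of let-7f by 1 base. Each of the 3 arms, 22 nt long, lay whole in both hairpins of its pair and in no other microRNA gene of the annotation.

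Read from the start of the 5p arm, the copies part only beyond its end. The first 30 bases of each precursor from the start of the arm are printed with the bases that differ between the copies of a pair in capitals.
Mirlet7a-1: ugagguaguagguuguauaguuuUAGgGuC
Mirlet7a-2: ugagguaguagguuguauaguuuAGAgUuA
Mirlet7c-1: ugagguaguagguuguaugguuuAgAgUuA
Mirlet7c-2: ugagguaguagguuguaugguuuUgGgCuC
Mirlet7f-1: ugagguaguagauuguauaguuGuGggguA
Mirlet7f-2: ugagguaguagauuguauaguuUuAggguC
The copies of let-7a and of let-7c shared their first 23 bases and those of let-7f their first 22. A read that starts with the 5p arm is therefore found in 1 microRNA gene only from a length of 24 nt for let-7a and let-7c, and of 23 nt for let-7f. In the let-7 genes of 1 copy this length was 9 nt for Mirlet7d, 11 nt for Mir98 and 17 nt for Mirlet7b, Mirlet7e, Mirlet7g and Mirlet7i.

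The 3p arms are shown because most of them tell the copies apart, again with the bases that differ within a pair in capitals.
let-7a-1-3p: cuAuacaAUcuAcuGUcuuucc
let-7a-2-3p: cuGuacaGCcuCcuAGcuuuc
let-7c-1-3p: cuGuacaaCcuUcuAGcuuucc
let-7c-2-3p: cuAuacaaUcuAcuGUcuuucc
let-7f-1-3p: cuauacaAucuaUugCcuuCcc
let-7f-2-3p: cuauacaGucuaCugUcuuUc
The arms differed by 6 of 21 compared bases in let-7a, 5 of 22 in let-7c and 4 of 21 in let-7f. The letters of let-7a-1-3p and let-7c-2-3p are the same throughout, so Mirlet7a-1 and Mirlet7c-2 had no mature arm of their own and became distinct from 24 nt on either arm. The other 4 members had a 3p arm found in no other microRNA gene. Identity over whole hairpins did not follow the names in every case. Mirlet7a-1 was closest to Mirlet7f-2, at 80.0% of alignment columns, and Mirlet7a-2 to Mirlet7c-1, at 79.2%, against 69.9% between the let-7a copies, 67.3% between the let-7c copies and 72.8% between the let-7f copies.

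Reads that aligned to both copies of a pair are in no gene of these files, and are listed only in the row of reads with several alignments. That row held 6593896 reads in replicate 1 and 10399139 in replicate 2, of all tissue RNA and not of let-7 alone. The counts of the 6 genes are thus the reads placed in 1 copy. If those reads were placed in the right gene, which was not tested, they are a lower bound for let-7a, let-7c and let-7f. The files do not split counts by arm or read length, so which arm the counted reads came from is not known. All sequence comparisons here use RefSeq and GENCODE sequence of the C57BL/6J reference, among microRNA genes and not over the whole genome.

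The libraries held 1950204 and 2291821 own-strand counts in microRNA genes, so that 1 count was worth 0.513 CPM (the usual scaling of a count to the library's total) in replicate 1 and 0.436 CPM in replicate 2. A gene with at least 10 counts in each library is called detected, which held for 278 genes. The skeletal muscle list used to check the tissue, led by Mir206, had 9 of 9 genes detected and 2.79% and 4.65% of counts in replicates 1 and 2. Most of that share was Mir206 alone, at 26708 and 41933.5 CPM. Smooth muscle microRNAs held 20.3% and 9.73%, the endothelial Mir126a 12.1% and 15.7% and fibroblast microRNAs 4.35% and 3.18%. Mir21a alone was most of the fibroblast share, at 42024 and 30322 CPM in replicates 1 and 2. Leukocyte microRNAs held 0.315% and 0.246% and red cell microRNAs 0.0787% and 0.0460%, and no gene of these lists was at 0 in both libraries. The skeletal muscle list holds genes in numbered copies too, with Mir1a-1 and Mir1a-2 at means of 13.3 and 212 CPM. Mir133a-1 and Mir133a-2 had means of 48.0 and 5.40 CPM. Reads of these genes that aligned to both copies would be set aside as well, so the shares do not rank the cell types. In whole tissue, fewer cells of a type and less RNA per cell cannot be told apart. A read of a small RNA is a whole molecule, so CPM was not divided by gene length, and the precursors of the 6 genes were of similar length, 83 to 96 nt.

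All 6 genes were detected, with 179 to 12116 counts in a library. Mirlet7f-2 had 9134 counts in replicate 1 and 12116 in replicate 2, or 4684 and 5287 CPM, and averaged 4985 ± 426 CPM (SD, n = 2). It ranked 29 of the 2202 genes. Its exact Poisson 95% intervals, 4588 to 4781 CPM and 5193 to 5382 CPM, did not overlap. Intervals here cover the counting error of reads and nothing else. PCR copies of 1 molecule are counted as separate reads, so the intervals can be too narrow for molecules.

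The other 5 genes were far lower. Mirlet7c-2 had 731 and 732 counts in replicates 1 and 2, and averaged 347 ± 39.2 CPM (SD, n = 2), rank 99. Mirlet7f-1 had 356 and 421 counts and 183 ± 0.814 CPM (SD, n = 2), rank 126. Mirlet7a-1 had 316 and 414 counts and 171 ± 13.2 CPM (SD, n = 2), rank 128. For these 3 genes the SD between the libraries was 11.3%, 0.445% and 7.68% of the mean. Mirlet7c-1 had 381 and 286 counts and 160 ± 49.9 CPM (SD, n = 2), rank 132, the widest relative spread of the 6 at 31.2% of its mean. Mirlet7a-2 had 179 and 223 counts and 94.5 ± 3.90 CPM (SD, n = 2), rank 149, the lowest of the 6.

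The order of the levels was clear at the ends and not in the middle. Mirlet7f-2 lay above Mirlet7c-2, and Mirlet7c-2 above the rest, in both libraries. Mirlet7f-1, Mirlet7a-1 and Mirlet7c-1 did not differ beyond their spread, since the CPM of Mirlet7c-1, 195 in replicate 1 and 125 in replicate 2, lay on both sides of the others. Mirlet7a-2 was below the other 5 genes in both libraries. For scale, the median of all detected genes was 123 CPM, and 5 of the 6 were above it.

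**Figure D1:**
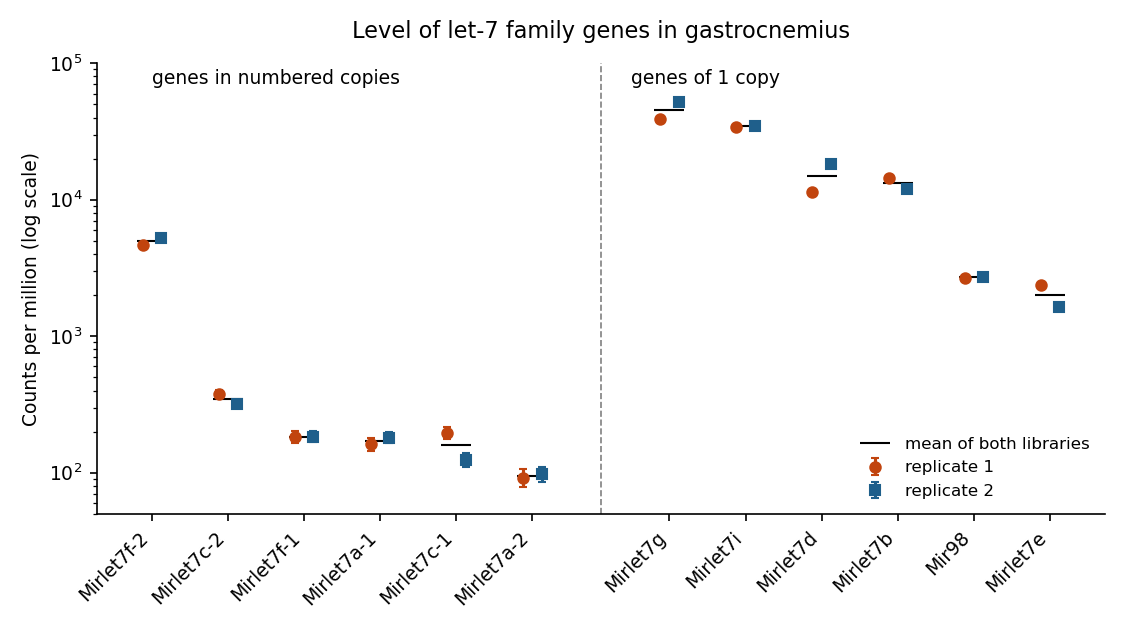
Level of each let-7 family gene in CPM (log axis). Circles are replicate 1, squares replicate 2, error bars exact Poisson 95% intervals (counting error only) and short lines the mean of both libraries. Mirlet7f-2, at a mean of 4985 CPM, lies far above the other 5 genes in numbered copies, which lie at means of 94.5 to 347 CPM, and the genes of 1 copy lie at 1999 CPM or above.

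The 6 genes together averaged 0.594% ± 0.0355 of microRNA gene counts (SD, n = 2). Their share was 0.569% in replicate 1 and 0.619% in replicate 2, with exact Clopper-Pearson intervals at 95% of 0.559 to 0.580 and of 0.609 to 0.629. Of this sum, Mirlet7f-2 alone was 82.3% (81.6 to 83.02) in replicate 1 and 85.4% (84.8 to 85.9) in replicate 2. Their summed counts, 11097 and 14192, equalled 0.168% and 0.136% of the reads that aligned to several places in the same library.

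Beside the let-7 genes of 1 copy, the counts of the 6 genes were small. Of the 8 other family names listed, Mirlet7b, Mirlet7d, Mirlet7e, Mirlet7g, Mirlet7i and Mir98 were in the files, and Mirlet7j and Mirlet7k were not found under those names. The 6 genes held 5.19% (5.10 to 5.29) of the whole family of 12 in replicate 1 and 4.85% (4.77 to 4.92) in replicate 2. By mean CPM the genes of 1 copy ran from 45449 ± 9429 for Mirlet7g, the highest, to 1999 ± 525 for Mirlet7e, the lowest (SD, n = 2 each). Mirlet7f-2 lay inside that range, above Mir98 and Mirlet7e, and the other 5 lay below it in both libraries. The groups were not tested against each other, since genes are not replicates and a read of the same kind is counted in one group and set aside in the other.

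**Figure D2:**
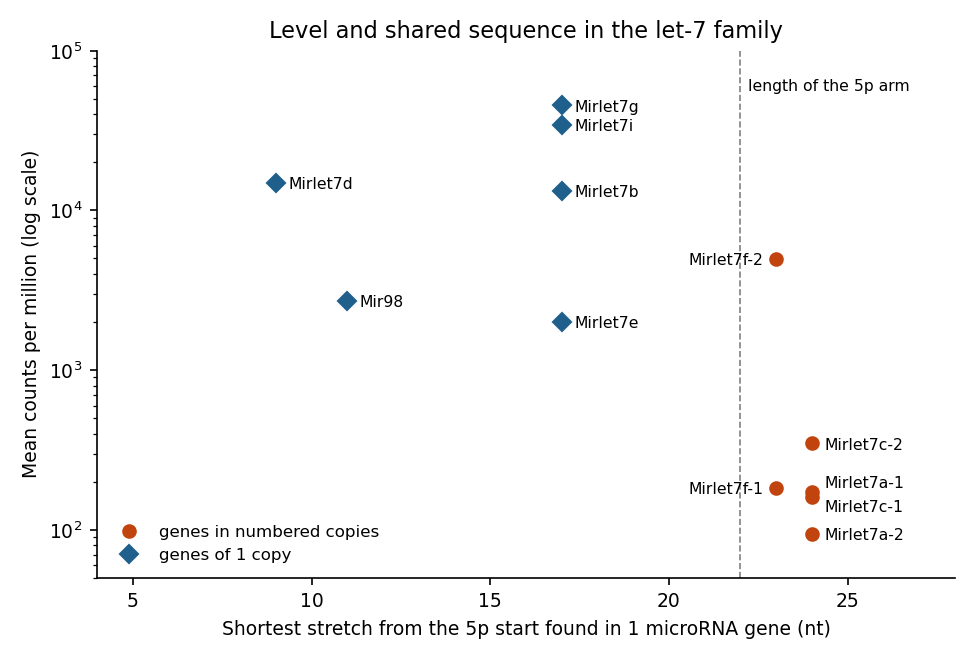
Mean level of the 12 let-7 family genes (CPM, log axis) against the shortest stretch, in nt from the start of the 5p arm, that occurs in 1 microRNA gene. All 6 genes in numbered copies (circles) lie at 23 or 24 nt, beyond the arm's 22 nt (dashed line), and the 6 genes of 1 copy (diamonds) lie at 9 to 17 nt.

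Within a pair, the uniquely placed reads fell unequally on the copies. In let-7a, copy 1 held 63.8% of 495 counts (95% exact interval 59.4 to 68.1) in replicate 1 and 65.0% of 637 (61.1 to 68.7) in replicate 2. In let-7c, copy 1 held the smaller part, 34.3% of 1112 counts (31.5 to 37.1) in replicate 1 and 28.1% of 1018 (25.4 to 30.97) in replicate 2. The let-7c intervals did not overlap, while those of let-7a did.

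In let-7f, copy 1 held 3.75% of 9490 counts (3.38 to 4.15) in replicate 1 and 3.36% of 12537 (3.05 to 3.69) in replicate 2. Mirlet7f-2 thus had 25.7 and 28.8 times the counts of Mirlet7f-1, the most unequal of the 3 pairs. Whether reads are placed in both copies equally well was not tested. Over both libraries the log2 difference of copy 1 from copy 2 was 0.86 ± 0.0514 in let-7a, −1.15 ± 0.294 in let-7c and −4.76 ± 0.117 in let-7f (SD, n = 2 each). Each mean was larger than its spread between libraries. Summed over the copies, let-7f had 5168 ± 427 CPM, let-7c 507 ± 89.1 CPM and let-7a 266 ± 17.1 CPM (SD, n = 2 each), again without the reads set aside. From the 5p start a read is placed from 23 nt in let-7f and only from 24 nt in let-7a and let-7c. The part set aside may thus differ between the pairs, and these sums do not rank the microRNAs.

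**Figure D3:**
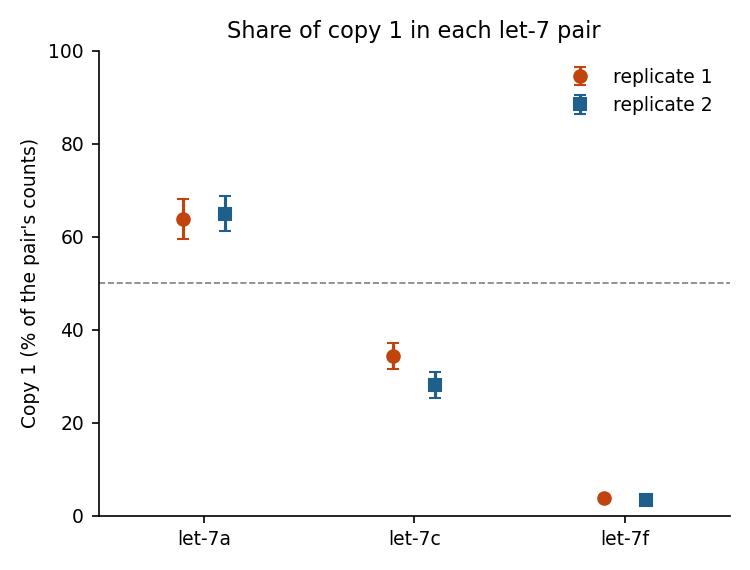
Share of copy 1 in the summed counts of copies 1 and 2 (%), for let-7a, let-7c and let-7f. Circles are replicate 1, squares replicate 2, error bars exact Clopper-Pearson 95% intervals and the dashed line an equal split. Copy 1 held more than an equal share in let-7a, less in let-7c and 3.75% and 3.36% in let-7f.

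Each of the 6 genes lies in a cluster with another microRNA gene on its strand within 10000 bp, and coordinates are those of mm10. Mirlet7a-1 (ENSMUSG00000065421.3, chromosome 13, 48538179 to 48538272) and Mirlet7f-1 (ENSMUSG00000105621.1, 48537829 to 48537917) lie on the minus strand within an exon of the lincRNA gene 6720427I07Rik, with Mirlet7d 1714 bp beyond Mirlet7f-1. Mirlet7a-2 (ENSMUSG00000092770.1, chromosome 9, 41536716 to 41536811, plus strand) is in introns of the noncoding genes 3110039I08Rik and Gm49317, 5211 bp from Mir100. Mirlet7c-1 (ENSMUSG00000065557.3, chromosome 16, 77599657 to 77599750, plus strand) is in an intron of Mir99ahg, the host gene of Mir99a, 656 bp from Mir99a, and an intron of Gm11146 lies on the opposite strand. Mirlet7c-2 (ENSMUSG00000065608.1, chromosome 15, 85706603 to 85706697, plus strand) is in an exon of the noncoding gene Lncppara, 621 bp from Mirlet7b. Mirlet7f-2 (ENSMUSG00000065602.1, chromosome X, 151912346 to 151912428, plus strand) is in an intron of Huwe1, which encodes a ubiquitin ligase, 785 bp from Mir98.

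Set beside the neighbours outside the 6 genes, 5 of the 6 had fewer counts in both libraries, by 37.3-fold to 223-fold. These folds compare counts as listed. The members' counts leave out the reads shared between copies, so part of any such difference is built into the counting, and the folds do not measure how the microRNAs themselves differed in level. Mirlet7c-1 stood 215-fold below Mir99a in replicate 1 and 223-fold below it in replicate 2, a log2 difference of −7.77 ± 0.0339 (SD, n = 2). Mirlet7a-2 stood 100.1-fold and 87.7-fold below Mir100, a log2 difference of −6.55 ± 0.134 (SD, n = 2). Mirlet7c-2 stood 38.6-fold and 37.3-fold below Mirlet7b, a log2 difference of −5.24 ± 0.0333 (SD, n = 2). No test was made between members and neighbours, for the reason given for the genes of 1 copy.

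On chromosome 13, 2 members share 1 neighbour. Mirlet7a-1 had a log2 difference of −6.41 ± 0.372 and Mirlet7f-1 of −6.31 ± 0.477 from Mirlet7d (SD, n = 2 each), with 22356 counts of Mirlet7d in replicate 1 and 42176 in replicate 2. Between themselves these members differed little, by −0.10 ± 0.104 for Mirlet7a-1 over Mirlet7f-1 (SD, n = 2), which is within the spread.

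Mirlet7f-2 was the exception. It was above Mir98, a let-7 gene of 1 copy with 5247 and 6205 counts, by 1.74-fold in replicate 1 and 1.95-fold in replicate 2, a log2 difference of 0.88 ± 0.117 (SD, n = 2).

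**Figure D4:**
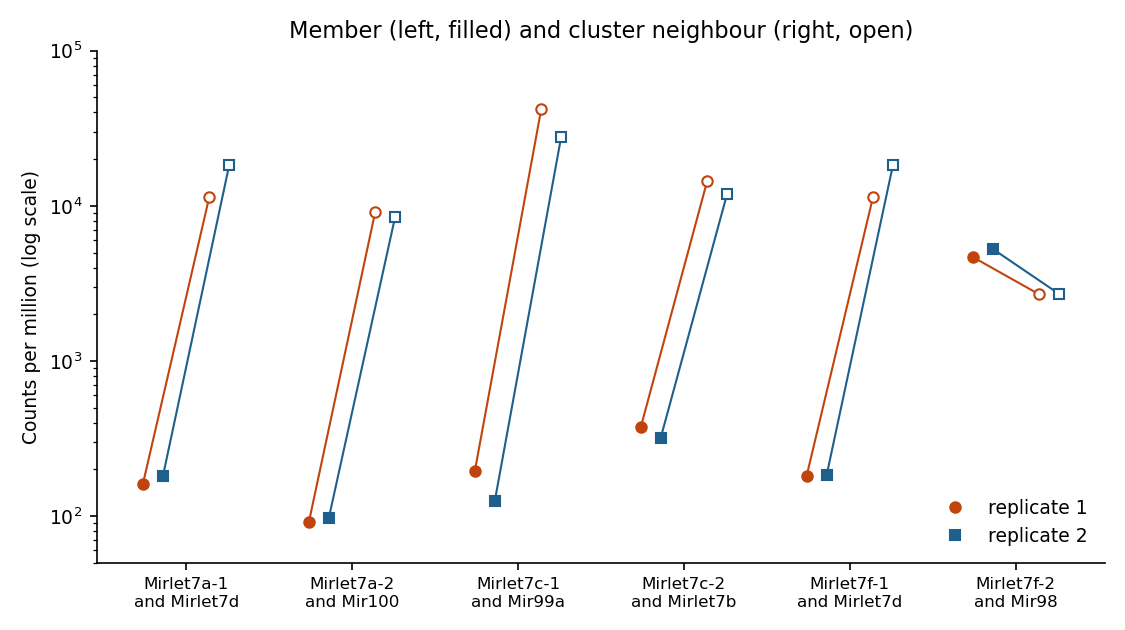
Each let-7 gene in numbered copies (filled, left) joined to its cluster neighbour (open, right), in CPM (log axis), for replicate 1 (circles) and replicate 2 (squares). The first 5 genes lie 37.3-fold to 223-fold below their neighbour, and Mirlet7f-2 lies above Mir98.

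Replicate 1 was compared with replicate 2 over the 278 detected genes in a two-sided conditional exact binomial test with Benjamini-Hochberg adjustment. The test compares these libraries and not conditions. At 2-fold or more and an adjusted p under 0.05, 33 of the 278 genes were called, 11.9%, and 0 of the 6 members. With no minimum fold 154 genes passed, 55.4%, and 3 of the 6 members, 2 higher in replicate 1 and 1 lower. Over all genes those directions held 30.6% and 24.8% of the tested genes. At an unadjusted p under 0.05 there were 163 of the 278 genes and again 3 of the 6 members. The members thus passed at about the rate of all detected genes.

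Mirlet7c-1 had the largest ratio of the members, 0.61 on the log2 scale (SE 0.113, counting error, adjusted exact p = 1.68e-07), and was higher in replicate 1. Mirlet7c-2 was higher in replicate 1 by 0.20 (SE 0.0754, adjusted exact p = 0.0187). Mirlet7f-2 was lower in replicate 1, at −0.21 (SE 0.0200, adjusted exact p = 5.1e-25). Mirlet7f-2 had the most counts of the members, and its ratio was smaller in size than that of Mirlet7c-1. Mirlet7a-1 at −0.19, Mirlet7a-2 at −0.12 and Mirlet7f-1 at −0.04 did not pass (adjusted exact p = 0.127, 0.513 and 0.752). The median ratio of the members was −0.08, against 0.03 over all detected genes. The median absolute ratio was 0.19 for the members and 0.36 over all detected genes.

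Those 3 passes were made against counting error alone. The coefficient of variation that edgeR estimated over all detected genes was 0.352, and with it 7 genes and no member were called (edgeR exact test, adjusted p = 1 for each of the 6). That estimate comes from the difference between the same 2 libraries, so only ratios far above the typical size could pass. Even Mirlet7c-1, at 0.61 against a median absolute ratio of 0.36 over all detected genes, did not. The p of 1 is therefore no evidence that the members did not differ. With an assumed coefficient of 0.2, 22 genes were called and the adjusted p of the members ran from 0.649 to 0.998.

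Each ratio can be set beside that of the cluster neighbour in the same libraries. Mirlet7c-1, at 0.61 (95% interval 0.39 to 0.83), and Mir99a, at 0.56, were both higher in replicate 1. Mirlet7c-2, at 0.20 (0.05 to 0.34), and Mirlet7b, at 0.24, were as well. In these pairs the neighbour's ratio lay inside the member's counting interval.

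Mirlet7a-2 had −0.12 (−0.40 to 0.17) and Mir100 0.07, inside the interval. On chromosome 13, the ratios of Mirlet7a-1 (−0.40 to 0.02) and Mirlet7f-1 (−0.25 to 0.16) each lay inside the interval of the other, and that of Mirlet7d, −0.72, lay outside both. Mirlet7f-2 had −0.21 (−0.25 to −0.17) and Mir98 −0.04, outside the interval. An interval narrows as counts rise, with an SE of 0.145 for Mirlet7a-2 and 0.0200 for Mirlet7f-2. Lying inside or outside it therefore does not rank how closely the members followed their neighbours. The share of smooth muscle microRNAs was higher in replicate 1 and that of skeletal muscle microRNAs lower, and their part in these ratios was not tested.

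**Figure D5:**
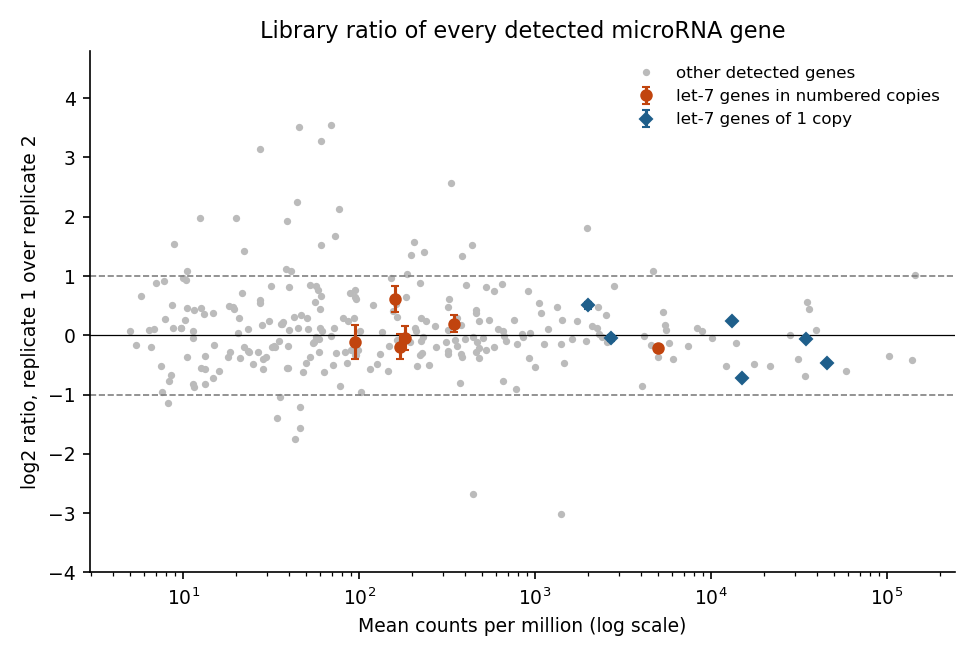
The log2 ratio of replicate 1 over replicate 2 for each detected gene against its mean level in CPM (log axis). Circles are the let-7 genes in numbered copies and diamonds those of 1 copy, with 95% counting intervals, small dots the other detected genes, and dashed lines mark a 2-fold difference. All 6 genes lie between −0.21 and 0.61, inside the dashed lines.

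Strand mattered for 1 member. Mirlet7f-1 is overlapped whole by Gm24111, a microRNA gene of the opposite strand, and in the counts without strand it is listed at 0 in both libraries, while its own-strand counts were 356 and 421. Gm24111 had 0 and 1 own-strand counts. The other 5 members had the same counts with and without strand.

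By level alone, the detected genes outside the family nearest to each member were named by their distance in log2(CPM + 1) over the 2 libraries. Mir195a (distance 0.0227) and Mir151 (0.110) were nearest to Mirlet7f-2, and Mir34a (0.105) and Mir92-1 (0.175) to Mirlet7c-2. Mir26a-2 was nearest to both Mirlet7a-1 (0.0712), followed by Mir542 (0.112), and Mirlet7f-1 (0.102), followed by Mir501 (0.143). Mir664 (0.0710) and Mir329 (0.147) were nearest to Mirlet7c-1, and Mir136 (0.123) and Mir483 (0.143) to Mirlet7a-2. With 2 libraries of 1 tissue this likeness is one of level only.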

How the data were processed

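The authors deposited raw counts of reads per microRNA gene for each library, for either strand, the own strand and the opposite strand. The assembly was mm10 and the annotation GENCODE mouse release 21, per the notes deposited with each library, with the aligner and counter not given in the sources used here. Rows that name no gene held 79.3% and 84.1% of the reads of replicates 1 and 2 and entered neither library sizes nor tests. Own-strand counts were used, with CPM over their total. All 2202 identifiers matched the annotation. RefSeq had a hairpin for 6 of the 6 members, equal to the GENCODE transcript, a 3p entry for 6 and a 5p entry for 5 (none for Mirlet7a-2).

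The library comparison used a conditional exact binomial test given TMM sizes (edgeR 4.0.16), with a prior of 0.5 counts in log2 ratios. It was tested on simulated counts with Poisson error only, which does not cover the wider spread between these libraries. Hairpins were aligned globally in Biopython 1.88. Other software was matplotlib 3.10.9, scipy 1.17.1, pandas 2.3.3, numpy 2.4.6 and Python 3.11.15, with DESeq2 1.42.0 under R 4.3.3. A quasi-likelihood test needs a second group and was left out. Alternatives changed the strand, denominator, scaling, count minimum, fold minimum, dispersion and libraries. Named genes were the members, the rest of the let-7 family, microRNA genes within 10000 bp on the strand of a member, and the 2 genes nearest in level to each. Members, lists and tests were chosen with earlier results of these data known.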

Additional observations from a re-analysis of the deposited data

Results flagged for a closer look

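Outside the gene counts used here lie the reads that aligned to several places, listed as a signal that entered no comparison and far above the limit of 3 counts. Replicate 1 had 70.07% of its reads there and replicate 2 had 72.33%. How many of them are let-7a, let-7c or let-7f reads is not given by the files.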

How the results depend on the processing

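The choice of denominator and of strand moved levels. A denominator cannot change the order of the copies in a pair, since both are counts of the same library. The copies of let-7a and let-7c had the same counts with and without strand, so strand could not change their order. The median level of the 6 members was 186 CPM, and became 226 CPM with counts of either strand, 34.1 CPM taken over all reads listed and 38.01 CPM over gene counts plus reads that aligned to several places. Their summed share became 0.790%, 0.108% and 0.121% under the same settings. Counts of either strand summed to 1485632 and 1607502 in replicates 1 and 2, against 1950204 and 2291821 for the own strand. No member had more counts without strand, so both rises came from these smaller totals. With counts of either strand Mirlet7f-1 is listed at 0, so copy 1 of let-7f held 0% of its pair. The log2 difference of Mirlet7f-1 from Mirlet7d was then −15.91, that from Mirlet7a-1 −9.50 and that of Mirlet7a-1 from Mirlet7f-1 9.50, all set by the prior count. The library comparison called 154 genes with no minimum fold and 7 with the estimated dispersion. It called 32 of 278 genes with DESeq2 size factors and 34 of 278 on library totals. With no count minimum 48 of 583 genes were called, and with counts of either strand 31 of 254. Under these settings 0 members were called, which at such shares over all genes says little about the members. Each tested member kept its direction, although Mirlet7f-1 had −0.01 on library totals and was not tested with counts of either strand. Leaving out a replicate gives the other library's value as printed, and no library comparison. No paired analysis was possible because there is 1 group. With 2 libraries, depth limits counting error only, and the spread between these libraries rests on 1 degree of freedom.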
